A study of Rattus norvegicus with 6 samples.

Results

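Nucleolar and ribosome assembly genes were examined in kidney cortex from 6 Sprague-Dawley rats (Crl:CD(SD)), all male, 3 given corn oil, the vehicle, and 3 given anthraquinone, a tricyclic quinone, at 1000 mg/kg/day. Dosing lasted 4 weeks in both groups, and the rats were 5 weeks old when bought. Each rat was hybridised to its own Agilent 1-colour array, and the series asks how gene expression differs with the compound. The members were 44 listed genes. Of these, 38 had at least 1 probe whose accession matched the symbol, out of 15284 symbols with a probe on the array, and all 38 were measured well above background on all 6 arrays. Utp6, Nop14, Rrp12, Rrp1b, Wdr75 and Nat10 had no matched probe and were not analysed here. The list was proposed with results of the comparison of these same arrays known. The differences between anthraquinone and corn oil are therefore given for the members as a description, and nothing is inferred from how many of them passed a test.

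A ribosome is built in the nucleolus. RNA polymerase I transcribes a long precursor RNA there, small nucleolar ribonucleoproteins (snoRNPs) modify it, and the small-subunit processome, whose UTP-A and UTP-B complexes bind first, folds and cuts out the RNA of the small subunit. A separate set of factors, among them the PeBoW complex of Pes1, Bop1 and Wdr12, matures the large subunit. In many cell types the genes for these factors are transcribed under the transcription factor MYC, which binds the DNA element CACGTG, called an E-box. Kidney tubule cells make new ribosomes steadily and more of them when they grow.

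That element was looked for in the RefSeq promoters of the members, on rat build GRCr8. Each promoter covers 250 bases before the gene's start and 50 after it. Of the 44 members 40 had a promoter in the table, and 16 of these, or 40.0%, held CACGTG. The same letters were in 6.42% of all 33469 promoters, in 8.76% of the 10147 promoters of named genes tested on the arrays, in 23.0% of 126 promoters of other ribosome assembly genes and in 7.81% of 64 promoters of cytosolic ribosomal proteins. In 9 members the element lay wholly before the start, and 8 of the 9 had a probe. The stretches of 60 bases that hold it are shown for those 8, with the E-box in capitals. They were picked with the differences between groups known, and include 5 of the 6 members with the highest difference. Over all tested members with a promoter the median difference was 0.16 with the element and 0.15 without it. Sequences are from RefSeq, build GRCr8, 5′ to 3′ on the strand of the gene. Utp18 and Mybbp1a hold a further E-box that is not shown.
Utp20 (chr7:25102944-25103003, minus strand, E-box 127 bases before the start): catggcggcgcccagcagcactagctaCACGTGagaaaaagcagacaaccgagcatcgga
Utp18 (chr10:79335815-79335874, minus strand, E-box 90 bases before the start): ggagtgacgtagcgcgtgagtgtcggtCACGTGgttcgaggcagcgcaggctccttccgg
Pes1 (chr14:83074269-83074328, plus strand, E-box 50 bases before the start): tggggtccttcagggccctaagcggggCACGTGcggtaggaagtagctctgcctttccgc
Gnl3 (chr16:6219783-6219842, minus strand, E-box 25 bases before the start): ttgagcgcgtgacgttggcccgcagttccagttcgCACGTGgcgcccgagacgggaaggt
Mybbp1a (chr10:57555275-57555334, plus strand, E-box 156 bases before the start): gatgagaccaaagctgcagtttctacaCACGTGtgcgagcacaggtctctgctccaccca
Utp4 (chr19:51702181-51702240, plus strand, E-box 25 bases before the start): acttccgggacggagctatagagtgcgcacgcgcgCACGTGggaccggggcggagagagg
Dkc1 (chrX:157751440-157751499, plus strand, E-box 184 bases before the start): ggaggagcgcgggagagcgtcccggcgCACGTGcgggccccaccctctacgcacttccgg
Ddx18 (chr13:35295973-35296032, minus strand, E-box 13 bases before the start): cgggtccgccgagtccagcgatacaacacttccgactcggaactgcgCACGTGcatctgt

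Both strands were searched for 7 motifs in all, chosen after their hits had been seen, and CACGTG reads the same on both. CCGGAAG, the core of sites for ETS factors, was in 37.5% of the 40 member promoters and 15.9% of those of named genes tested. The palindromic site of the factor NRF1 was in 27.5% and 8.57%. The GC box GGGCGG was in 67.5% and 57.0%. TATAAA was in 5.0% and 8.49%, CTTTCC in 17.5% and 25.9%, and a long palindromic CG-rich element in 2.5% and 0.838%. Other ribosome assembly genes held CCGGAAG in 63 of 126 promoters, and ribosomal protein genes held CTTTCC in 48.4% and the CG-rich element in 12.5%. Such matches are descriptions of letters in a window, and no binding was measured.

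Most members had somewhat more signal with anthraquinone, by small amounts. The log2 difference, anthraquinone minus corn oil, was positive in 33 of the 38 members and negative in 5, with a median of 0.14 and a range from -0.13 to 0.96. Over all 32663 entries tested, where an entry is a gene at its brightest probe or a probe with no symbol, the median was 0.0074 and 51.6% were positive. Over the 6535 named genes with a mean signal in the range of the middle of the members (their 10th to 90th percentile) the median was 0.011 and 52.9% were positive. In 23 members the 2 groups of arrays had no overlapping values. In 21 of these all 3 anthraquinone arrays lay above all 3 corn oil arrays, an order found in 15.0% of all entries, and in 2 they lay below, an order found in 10.2%. The renal cortex holds many cell types, so a change in the number of cells of a type and a change in the RNA per cell cannot be told apart.

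In limma, 0 of the 38 members passed at an adjusted p under 0.05 over all entries, where 0.0276% of entries (9 of 32663) passed, 0.0153% higher and 0.0122% lower. An unadjusted limma p under 0.05 was found in 9 members, all with a positive difference, beside 17.1% of all entries, 9.47% higher and 7.65% lower. With an intensity trend in the variance, or with no filter on dim probes, Utp20 was the 1 member that passed, beside 0.178% and 13.4% of all entries under these settings.

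**Figure D1:**
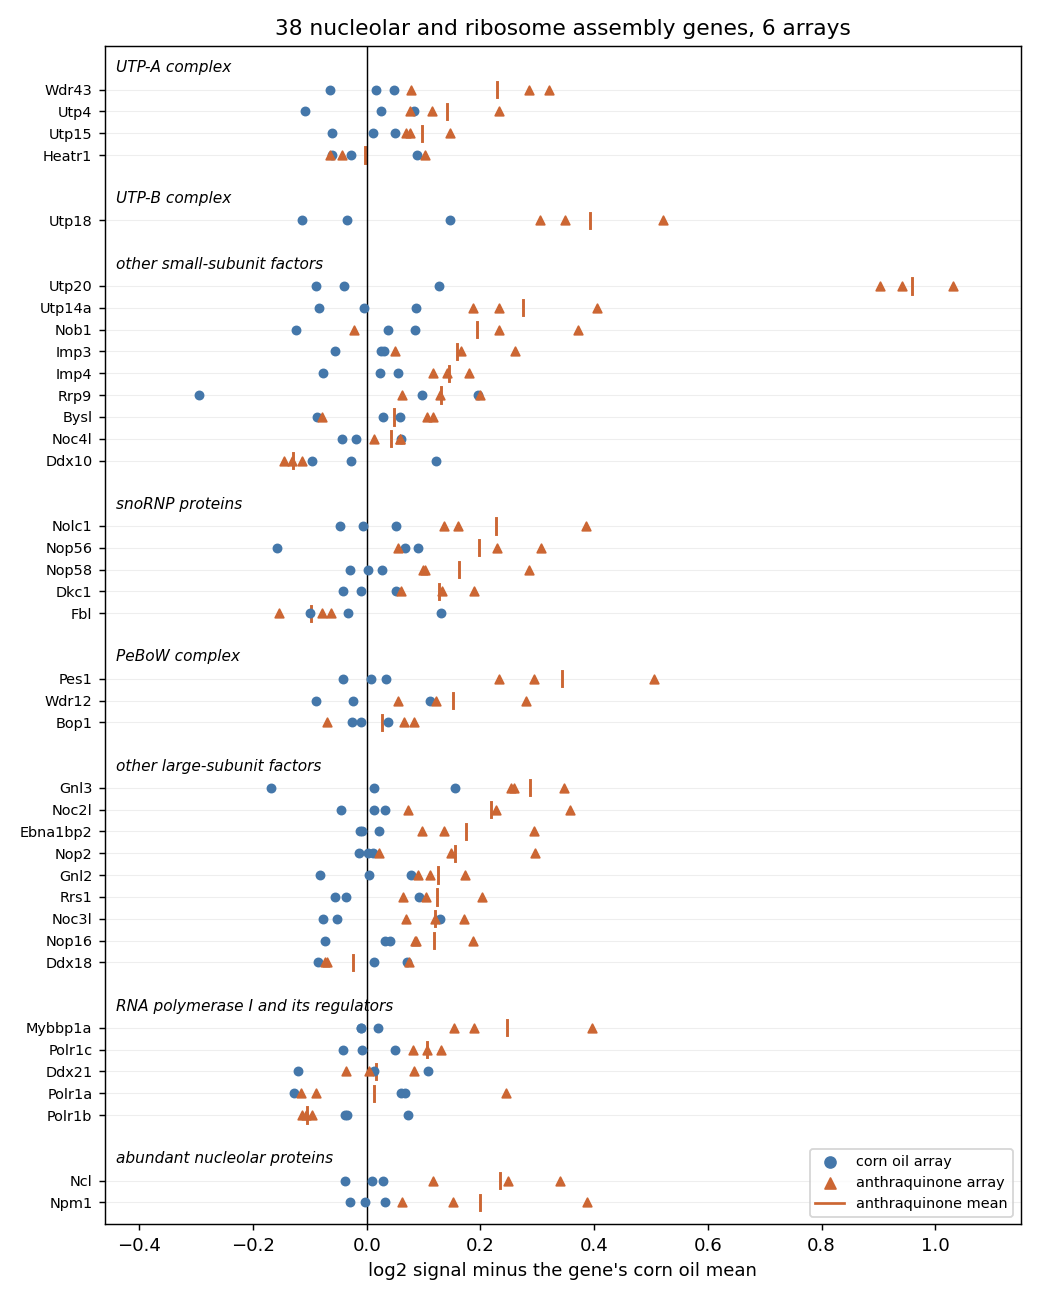
Log2 signal of the 38 measured members on each of the 6 arrays, as the difference from the gene's mean over the 3 corn oil arrays (x axis), grouped by role; circles are corn oil arrays, triangles anthraquinone arrays and the vertical stroke the anthraquinone mean. Utp20 stands apart at 0.96, most other strokes lie between 0 and 0.39, and 5 members (Heatr1, Ddx10, Fbl, Ddx18 and Polr1b) have a stroke below 0.

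The arrays differed in how they shared these differences. The median member lay 0.12, 0.09 and 0.22 above its corn oil mean on anthraquinone replicates 1, 2 and 3, and at 0.03, -0.0069 and -0.03 on corn oil replicates 1, 2 and 3. Anthraquinone replicate 3 carried the highest value of 21 of the 38 members, and corn oil replicate 3 the lowest value of 16. Leaving out anthraquinone replicate 3 gave a median of 0.11. Corn oil replicate 1 was the single array on its slide and in its scan. Among the other 5 arrays, which is the same as the fit with slide as a block, the median was 0.16, with 31 of 38 positive. Corn oil replicates 2 and 3 lay in row 1 of the slide and every other array in row 2. In the fit with slide as a block all corn oil arrays are in row 1 and all anthraquinone arrays in row 2, so that row and treatment cannot be told apart there. In the main fit the only corn oil array in row 2 is replicate 1, which is on the other slide. Row, slide and treatment can thus not be told apart in the main fit either.

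The difference also moved with signal. Among named genes the median difference was -0.13 in the 1176 genes dimmer than -4 on the scaled log2 axis. It was 0.0054 in the 2727 genes between 0 and 2, and 0.16 in the 384 genes brighter than 6. A dim gene can be tested through either group alone, and the corn oil arrays had more probes well above background. With no filter on dim probes the median over all entries was 0.057, against 0.0074 as reported. The part of the filter in the value of the dimmest genes was not tested. Of the members 34 of 38 had a difference above the median of the named genes in their own signal range, a median that splits those genes evenly. The part of signal in the members' values was not tested. Between -2 and 0 the 9 members had a median of 0.12 and the 2434 named genes -0.02. Between 0 and 2 the 14 members had 0.13, and 12 of them lay above the median of the named genes. Between 2 and 4 the 10 members had 0.19 and the 2093 named genes 0.04. The other 2 ranges held few members. Between 4 and 6 the 3 members had 0.11 and the 963 named genes 0.09, and between -4 and -2 Utp20 lay above the median of the named genes and Polr1b below it.

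**Figure D2:**
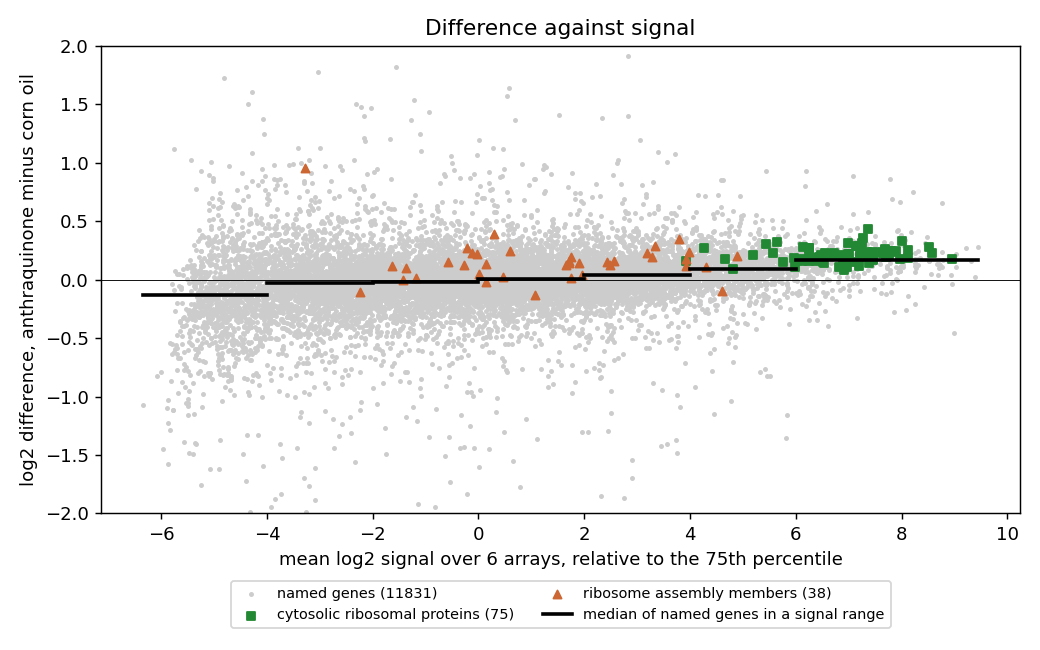
Log2 difference, anthraquinone minus corn oil (y axis), against mean log2 signal over the 6 arrays relative to each array's 75th percentile (x axis), for the named genes tested (grey; 31 lie beyond the plotted limits of -2 and 2), the 38 members (triangles) and 75 cytosolic ribosomal protein genes (squares); black strokes are medians of named genes in a signal range. The strokes climb from -0.13 on the left to 0.16 on the right, where most ribosomal protein genes sit. Dim genes on the left can have been tested through either group alone.

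Within the small-subunit processome, Utp20 had the highest difference of all members. It encodes a very large protein that scaffolds the late processome. Its log2 signal, relative to the array's 75th percentile, was -3.63, -3.84 and -3.80 on the corn oil arrays and -2.81, -2.85 and -2.72 on the anthraquinone arrays. The 3 anthraquinone values were thus close together and far above the corn oil values, with a difference of 0.96 ± 0.09 (SE, n = 3 per group), or 1.94-fold. It was the member with the lowest limma adjusted p, 0.0658 over all entries. The range over the 16 alternatives was 0.0199 to 0.246. A dimmer measured probe of Utp20 gave a smaller difference of 0.38, with values from -3.96 to -3.74 in corn oil and from -3.76 to -3.26 with anthraquinone, which overlap. A further probe was not above background on any array. With the mean of its measured probes the difference was 0.67, and with normexp background correction and quantile normalization together 0.53.

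Utp18 encodes a subunit of the UTP-B complex, whose only other subunit on the list of members, Utp6, was not measured. Its log2 signal was 0.24, -0.02 and 0.06 in corn oil and 0.40, 0.44 and 0.62 with anthraquinone. The groups did not overlap, and the difference was 0.39 ± 0.10 (SE, n = 3 per group), from 1 probe. Utp14a encodes a processome protein that works with an RNA helicase late in the pathway. Its signal was -0.27, -0.36 and -0.44 in corn oil and -0.12, -0.17 and 0.05 with anthraquinone, again without overlap. Its difference was 0.28 ± 0.09 (SE, n = 3 per group), and its 4 measured probes all gave positive values.

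The UTP-A complex, which joins transcription of the precursor to its first processing, had no common value. Its 4 measured members ranged from -0.0022 to 0.23. Wdr43 was at -0.19, -0.30 and -0.22 in corn oil and at -0.16, 0.08 and 0.05 with anthraquinone, without overlap. Heatr1, the largest protein of the complex, was at -1.46, -1.49 and -1.34 in corn oil and at -1.33, -1.47 and -1.495 with anthraquinone. The groups of Heatr1 overlapped fully. Utp4 was at 0.14 ± 0.09 (SE) with overlapping groups. Utp15 was at 0.10 ± 0.07 (SE) on its brightest probe, without overlap, while its 2 dimmer measured probes had negative values. The dimmest probe of Utp15 was well above background on 3 corn oil and 0 anthraquinone arrays. It thus counted as measured only through the group where it was higher.

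The other small-subunit factors had small differences. Imp3 and Imp4, which help pair the precursor with its guide RNA, had values of 0.16 and 0.15, and in both the groups did not overlap. Nob1, the endonuclease that makes the final cut of the small-subunit RNA, had 0.19 ± 0.12 (SE), with anthraquinone replicate 1 among the corn oil values. Rrp9, which binds the guide RNA of the processome, had 0.13, and Bysl and Noc4l, factors of small-subunit assembly, 0.05 and 0.04. The groups of these 3 overlapped. Rrp9 had 1 low array, corn oil replicate 1, and without it the difference was -0.02. Ddx10, an RNA helicase gene, was the lowest member. Its signal was 1.1015, 1.25 and 1.03 in corn oil and 1.00, 0.98 and 1.02 with anthraquinone, and the difference was -0.13 ± 0.08 (SE, n = 3 per group). All 3 of its probes gave negative values, and on the brightest the anthraquinone arrays lay just below the corn oil arrays. The dimmest of the 3 probes was well above background on 3 corn oil but only 2 anthraquinone arrays. It thus counted as measured only through the group where it was higher.

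The snoRNP proteins had a median of 0.16 over 5 members. Nolc1 encodes a chaperone that shuttles snoRNPs between the nucleolus and Cajal bodies. Its signal was 3.13, 3.07 and 3.03 in corn oil and 3.21, 3.24 and 3.46 with anthraquinone, without overlap, and all 4 measured probes had positive differences. Nop56 and Nop58, the paired core proteins of the snoRNPs that guide methylation, had 0.20 and 0.16, and their 4 and 2 measured probes were all positive. Nop58 did not overlap between groups and Nop56 did. Dkc1, the pseudouridine synthase of the other snoRNP class, had 0.13, without overlap.

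Fbl, which encodes fibrillarin, the methyltransferase of the same particle as Nop56 and Nop58, went the other way in sign. Its signal was 4.79, 4.62 and 4.56 in corn oil and 4.59, 4.50 and 4.58 with anthraquinone, so the groups overlapped. The difference was -0.10 ± 0.09 (SE, n = 3 per group), from 1 probe.

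The 3 genes of the PeBoW complex, whose proteins act as 1 unit in large-subunit maturation, had unequal values. Pes1 was at 3.57, 3.65 and 3.62 in corn oil and at 3.85, 3.91 and 4.12 with anthraquinone. The groups were well apart, with a difference of 0.34 ± 0.09 (SE, n = 3 per group) on the brightest probe and 0.27 on the other. Bop1 was at 0.44, 0.48 and 0.42 in corn oil and at 0.53, 0.38 and 0.51 with anthraquinone. Its groups overlapped, with a difference of 0.03 ± 0.08 (SE, n = 3 per group). Wdr12 lay between them at 0.15 ± 0.10 (SE), also with overlap. Whether these 3 differences differ from each other was not tested.

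Among the other large-subunit factors 8 of 9 had a positive difference. Gnl3 encodes nucleostemin, a nucleolar GTPase abundant in dividing and progenitor cells. It was at 3.35, 3.21 and 3.03 in corn oil and at 3.46, 3.54 and 3.45 with anthraquinone. The lowest anthraquinone array was just above the highest corn oil array, and the difference was 0.29 ± 0.10 (SE, n = 3 per group) on the brightest probe and 0.32 on the other. Noc2l (0.22) and Noc3l (0.12), partners in the export of pre-ribosomes, Ebna1bp2 (0.18), Nop2 (0.16), the methyltransferase of the large-subunit RNA, Gnl2 (0.12), Rrs1 (0.12) and Nop16 (0.12) had like values. Of these 7, only Noc3l and Rrs1 had groups that overlapped. One dimmer probe of Noc3l gave -0.02. The helicase gene Ddx18 was at 0.07, 0.17 and 0.22 in corn oil and at 0.23, 0.08 and 0.08 with anthraquinone, with a difference of -0.02 ± 0.08 (SE) and full overlap.

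RNA polymerase I itself had values on both sides of 0. Polr1a, the largest catalytic subunit, was at -1.32, -1.12 and -1.13 in corn oil and at -1.28, -1.3047 and -0.94 with anthraquinone, where 1 array was above all others and the groups overlapped. Its difference was 0.01 ± 0.12 (SE, n = 3 per group). Polr1b, the catalytic subunit that pairs with it, was at -2.12, -2.23 and -2.23 in corn oil and at -2.29, -2.30 and -2.30 with anthraquinone, slightly lower without overlap, with a difference of -0.11 ± 0.07 (SE, n = 3 per group). Polr1c, which RNA polymerases I and III share, had 0.11 on each of its 2 probes, without overlap. Mybbp1a encodes a nucleolar protein that binds MYB and restrains RNA polymerase I. It was at 0.45, 0.48 and 0.46 in corn oil and at 0.62, 0.65 and 0.86 with anthraquinone, well apart, with 0.25 on both of its probes. The helicase gene Ddx21, which acts in transcription and in processing, had 0.02.

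The abundant nucleolar proteins nucleolin (Ncl) and nucleophosmin (Npm1) had close values. Ncl was at 3.90, 3.88 and 3.83 in corn oil and at 3.98, 4.12 and 4.21 with anthraquinone. The difference was 0.23 ± 0.08 (SE, n = 3 per group), without overlap. Npm1 was at 4.79, 4.82 and 4.76 in corn oil and at 4.85, 4.94 and 5.17 with anthraquinone, also without overlap, and its 3 measured probes gave 0.16 to 0.21. In both genes anthraquinone replicate 3 was the highest array.

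**Figure D3:**
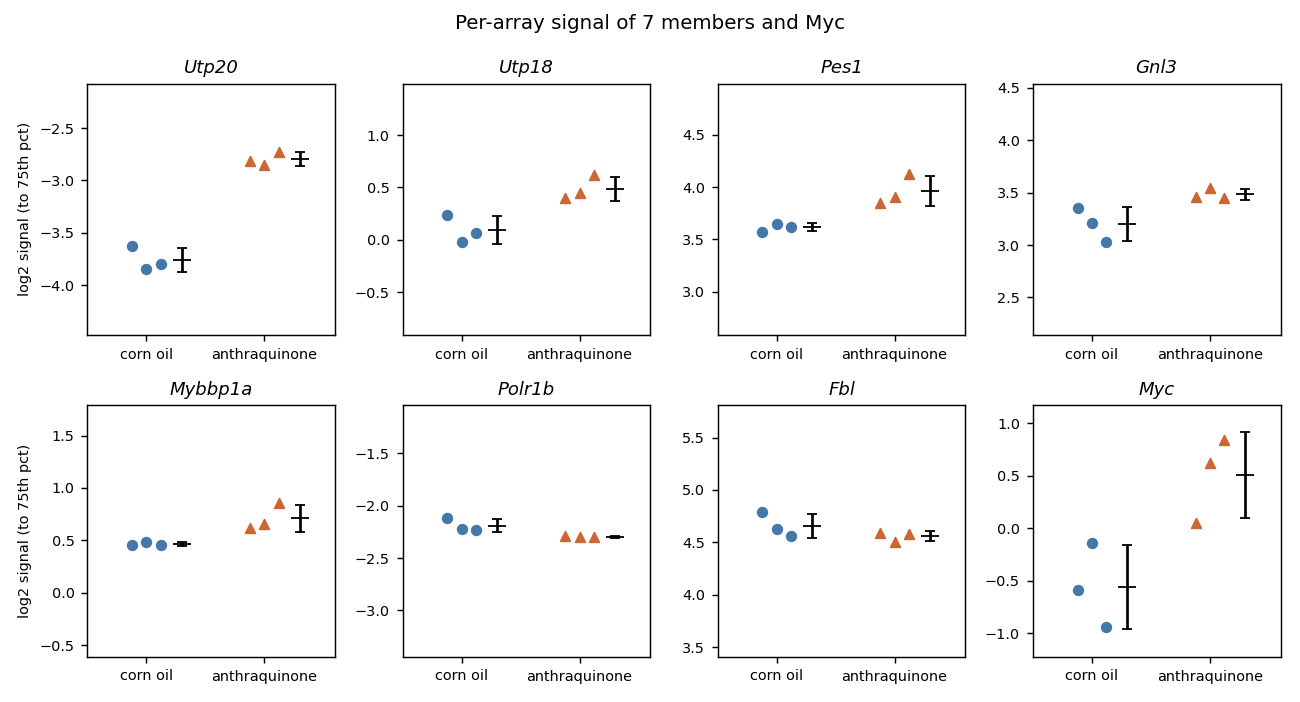
Log2 signal relative to the array's 75th percentile (y axis, the same span in every panel) for 7 members and Myc on the 3 corn oil arrays (circles) and the 3 anthraquinone arrays (triangles), with the mean and SD as a bar at the right of each group. The group means differ by 0.96 in Utp20 and 1.07 in Myc and by 0.25 to 0.39 in Utp18, Pes1, Gnl3 and Mybbp1a. The values are slightly lower with anthraquinone in Polr1b and overlap in Fbl.

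Probes of the same gene mostly had the same sign. Of the 38 members 19 had several measured probes, and in 15 of these all probes had the same sign, 13 positive and 2 negative. The other 4, Utp15, Noc4l, Noc3l and Ddx21, were mixed. Over all 70 measured probes of members 57 had a positive difference. Of these 70, a probe of Utp15 and a probe of Ddx10 counted as measured only through the corn oil arrays. Both had a negative difference.

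Members with and without the E-box were compared as a description. The 13 tested members with CACGTG in the promoter had a median difference of 0.16, with 11 positive, and the 21 without it 0.15, with 18 positive. The 8 whose E-box lay wholly before the start, shown above, had a median of 0.27, from -0.02 for Ddx18 to 0.96 for Utp20. These 8 were set apart with their high values known. The other 5 tested members with the element, Bysl, Ebna1bp2, Fbl, Noc3l and Nop2, have it only after the start, and their median was 0.12, from -0.10 to 0.18. No test was made of this split.

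Myc, which encodes the transcription factor named above, was at -0.59, -0.14 and -0.94 in corn oil and at 0.05, 0.63 and 0.84 with anthraquinone. All 3 anthraquinone arrays lay above all 3 corn oil arrays, and both groups were widely spread. The difference was 1.07 ± 0.27 (SE, n = 3 per group), or 2.09-fold, from 1 probe. It did not pass in limma (adjusted p = 0.197 over all entries, and from 0.0735 to 0.386 over the 16 alternatives). Mycn, the lowest of the 9 tested genes of the MYC network, had -0.98 ± 0.57 (SE) with overlapping groups, and the median of the list was 0.04.

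Genes of the same pathway outside the members had a lower median. Of 144 listed, 119 were tested, and 81 of these had a positive difference, with a median of 0.05. None passed in limma (lowest adjusted p 0.191). At an unadjusted limma p under 0.05 there were 12 higher (10.1%, against 9.47% of all entries) and 4 lower (3.36%, against 7.65%). The groups did not overlap in 23 higher genes (19.3%, against 15.0%) and 5 lower genes (4.20%, against 10.2%). The median depended on single arrays. It was 0.03 without corn oil replicate 3, 0.03 without anthraquinone replicate 3 and 0.08 without corn oil replicate 1.

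The other large-subunit factors came nearest to the members, with 35 of 40 positive and a median of 0.11. Surf6, a nucleolar factor of large-subunit assembly, was the highest at 0.49 ± 0.15 (SE, n = 3 per group), without overlap, but its dimmer probes gave 0.11 and -0.03. Gtpbp4, a GTPase of large-subunit assembly, was the lowest. It was at 3.73, 3.45 and 1.78 in corn oil and at 0.97, 0.87 and 1.09 with anthraquinone, with corn oil replicate 3 far below the other corn oil arrays and the groups still apart. The difference was -2.01 ± 0.50 (SE, n = 3 per group). Without corn oil replicate 3 it was -2.62 and passed in limma (adjusted p = 0.0169, against 0.193 with all arrays and up to 0.395 over the alternatives). Its 4 probes disagreed, with -2.01 and -1.86 on 2 of them and 0.34 and 0.10 on the others.

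The remaining pathway lists had medians near 0. The other small-subunit factors had 0.02 over 32 genes, from -0.39 for Utp23 to 0.29 for Bud23, the methyltransferase of the small-subunit RNA. The other snoRNP genes had 0.0057 over 12 genes, from -0.28 for Coil, which encodes the Cajal body protein coilin, to 0.18 for Snu13. The other RNA polymerase I genes had 0.02 over 14 genes, from -0.29 for Taf1c, a subunit of the promoter selectivity factor, to 0.23 for Polr2e, a subunit shared by all 3 nuclear polymerases. The exosome and RNase MRP genes had -0.0055 over 21 genes, from -0.38 for Pop1 to 0.67 for Exosc2. Exosc2 encodes a cap subunit of the RNA exosome, its groups did not overlap, and a dimmer probe gave 0.14.

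The cytosolic ribosomal proteins, which the members assemble, had positive differences in 75 of 75 tested genes, with a median of 0.21. In 67, or 89.3%, the anthraquinone arrays lay above all corn oil arrays, against 15.0% of all entries. They are among the brightest genes on the array, and the 395 named genes of similar signal had a median of 0.15, with 83.3% positive and 47.1% in that order. The values ranged from 0.09 for Rpl11 to 0.43 for Rps18. After quantile normalization the median was 0.03 and 54 of 75 were positive, and after normexp with quantile normalization 0.03 and 51. The members' median was 0.12 and 0.10 under the same settings, with 33 of 38 positive in each. Copies of ribosomal protein genes elsewhere in the genome may share their probes.

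**Figure D4:**
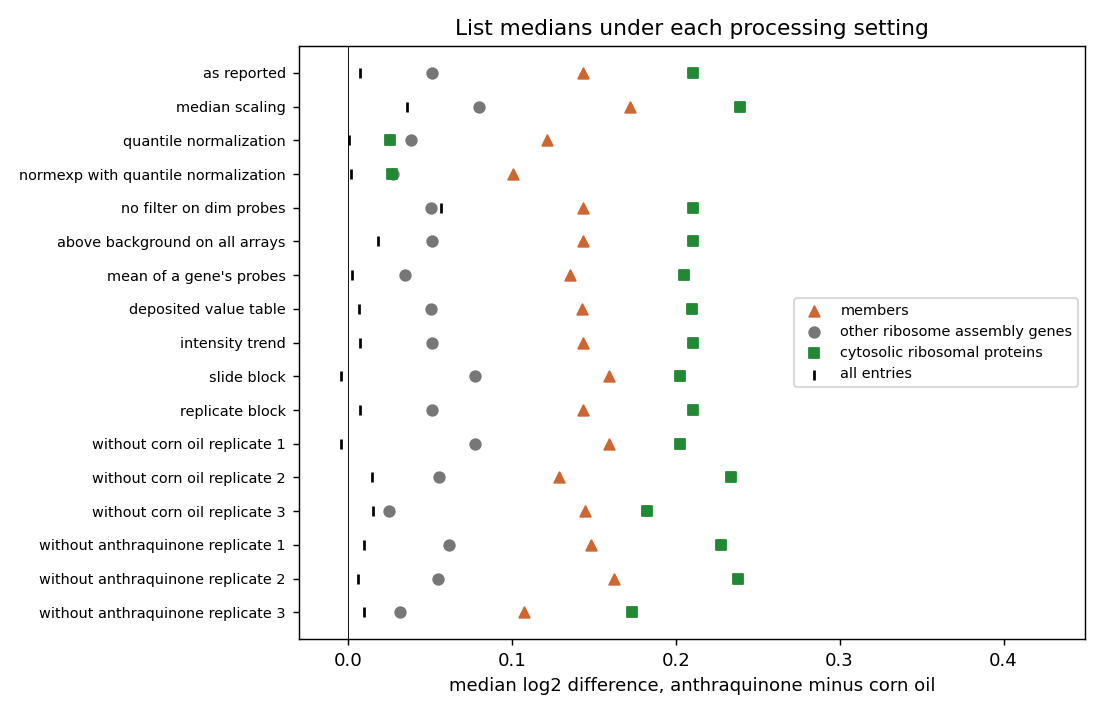
Median log2 difference, anthraquinone minus corn oil (x axis), over the tested members, the other ribosome assembly genes, the cytosolic ribosomal proteins and all entries, as reported and under each of the 16 alternatives, left-out arrays included (y axis). The members' median lies between 0.10 and 0.17 in every setting shown, while that of the ribosomal proteins goes from 0.21 to 0.03 with quantile normalization.

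Markers of other cells were read beside these values. All 12 proximal tubule markers, the main cell of the labelled tissue, were above background on all 6 arrays, and 9 had a positive difference, with a median of 0.09. Of 14 markers of proliferating cells 11 were tested and 10 had a positive difference, with a median of 0.22. Their summed linear signal, in multiples of the 75th percentile, was 4.42 to 4.93 on the corn oil arrays and 5.05 to 6.12 on the anthraquinone arrays, without overlap. Mki67 and Top2a had no matched probe, and Aurkb was not well above background on all arrays of either group. Of 5 tested macrophage markers 3 had a positive difference, and Adgre1 (-0.26) and Csf1r (-0.23) a negative one. The sum of these 5 was 16.4 to 18.1 in corn oil and 18.0 to 23.8 with anthraquinone, with overlap. The sum of 2 red cell markers was 186 to 228 and 282 to 375. That of 4 tested lymphocyte markers was 1.09 to 1.32 and 1.02 to 1.43, and Cd3e was not well above background on all arrays of either group. The 4 lymphocyte markers had a median difference of -0.54. Markers of other tubule segments had lower medians than those of the proximal tubule. That of 6 principal cell markers was -0.43, with 1 positive, and that of 5 tested thick ascending limb markers was -0.21, with 1 positive. An unadjusted limma p under 0.05 was found in 3 lower and 1 higher principal cell markers. It was also found in 6 higher proliferating cell markers and 2 higher red cell markers. Each other cell type had at most 1 in each direction. Over all entries the shares were 9.47% higher and 7.65% lower. The medians were -0.08 for podocytes, -0.18 for 2 tested neutrophil markers, 0.01 for intercalated cells, 0.0098 for endothelium, 0.11 for fibroblasts and mesangium, 0.10 for macrophages and 0.76 for red cells. The part of these cells in the members' values was not tested.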

How the data were processed

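Kidney cortex RNA of 6 rats was measured on Agilent 1-colour arrays, 3 per group, stated by the series to be biological replicates. The deposited processed intensity of each spot comes, per the file headers, from Agilent Feature Extraction version 10.7.1.1 (10.7 per the submitters' processing notes), which subtracts background. The deposited value table holds a ratio on a linear scale whose basis is not stated: 90.7% to 97.0% of its values per array lay within 0.01 log2 of intensity over the array's 75th percentile, and its column medians were 0.109, 0.113, 0.114, 0.109, 0.111 and 0.110.

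Here, the 75th percentile of an array's 61657 non-control probes was subtracted from its log2 intensities, without 2 to 13 outlier spots per array. The percentile was 1191, 903 and 956 in corn oil and 880, 866 and 844 with anthraquinone. Corn oil arrays had 68.7%, 70.5% and 70.7% of their probes well above background. The anthraquinone arrays had fewer, at 65.0%, 64.2% and 66.1%, without overlap. The part of this split in the differences was not tested. The number of arrays limits the precision. A probe was tested if every array of a group measured it well above background (41310 probes). Symbols came from RefSeq (GRCr8) by unversioned accession (27460 probes, 15284 symbols). A gene was read at its brightest probe, and probes with no symbol stood alone, giving 32663 entries, 11831 of them named. limma 3.58.1 in R 4.3.3 (lmFit, eBayes) with Benjamini-Hochberg adjustment at 0.05 was applied, and was tested on simulated data. The members and lists were chosen with earlier results of these data known. Per-array values are given for the 6 highest and 6 lowest members and for the extremes of each role, and outside the members for Myc and Gtpbp4, with values for the extremes of each list; 1 further list is not reported here. The main fit did not pair the arrays by replicate number. Correlations of same-numbered deviations were 0.03, -0.06 and -0.0074, and those of differently numbered arrays went from -0.10 to 0.11. With so few arrays these values neither show nor exclude a pairing. Alternatives covered scaling, normexp, filters, probe averaging, the value table, an intensity trend, slide and replicate blocks and left-out arrays.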

Additional observations from a re-analysis of the deposited data

How the results depend on the processing

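The members' median difference stayed between 0.10 and 0.17 over 16 alternatives, and that of the other assembly genes between 0.03 and 0.08. Some alternatives could not move the members' differences. Their median was 0.14 as reported, and the same with no filter on dim probes and with probes above background on all arrays. It was also the same with an intensity trend and with the replicate block. The slide block gave the same 0.16 as leaving out corn oil replicate 1. Of the 38 members 31 kept their sign in every alternative; Utp15, Heatr1, Rrp9, Bop1, Ddx18, Ddx21 and Polr1a did not. The number of entries that passed in limma, 9 as reported, was 17 with normexp and quantile normalization, 6611 with no filter on dim probes, 58 with an intensity trend, 2 with slide as a block, 1 with the replicate number as a block, and 1 to 25 with an array left out. The member count of 0 became 1 with no filter and 1 with an intensity trend, both Utp20 (limma adjusted p 0.0199 and 0.0428). The count of other assembly genes became 1 with no filter (Exosc2, limma adjusted p 0.0475), and was 0 to 1 with an array left out (Gtpbp4, without corn oil replicate 3). The cause of these moves was not tested. With 3 arrays per group and small differences, the spread between arrays limits what single members can show, and dim probes such as those of Utp20 have signals nearer the background.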

Other observations

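Genes that MYC is known to act on outside the nucleolus had a median difference of 0.13 over 19 tested genes, 14 of them positive. None passed in limma, where 4 had an unadjusted p under 0.05 (21.1%, against 17.1% of all entries). All 4 were higher, as were 9.47% of all entries. In 11 genes (57.9%, against 15.0% of all entries) the anthraquinone arrays lay above all corn oil arrays, and in 0 below (against 10.2%). No genes of similar signal were set beside this list, and it was chosen with earlier results of these data known. Paics, an enzyme of purine synthesis, was the highest, with 2.69, 2.77 and 2.80 in corn oil and 3.01, 3.10 and 3.4034 with anthraquinone. The groups did not overlap, and the difference was 0.42 ± 0.12 (SE, n = 3 per group). Ccnd2, a cyclin of the first gap phase, was the lowest at -0.24 ± 0.15 (SE), with overlap. The 6 genes of subunit export had a median of -0.0040, from -0.14 for Nup88, a nuclear pore protein, to 0.24 for Ran, the GTPase of nuclear transport.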
